A study of Homo sapiens with 4 samples.

Results

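The genes described here build and turn over actin filaments. They are the subunits of the Arp2/3 complex, the WAVE complex and N-WASP, the formins, the profilins and thymosins, the cofilins with their kinases and phosphatases, the capping and severing proteins, the Ena/VASP proteins and cortactin. They were chosen by function, as a list of 51 gene symbols, and all 51 were found among the 58522 genes of the deposited table. RNA-seq was run on Ishikawa cells, an established line of human endometrial adenocarcinoma with epithelial features. In the control group (2 libraries) the cells carried a negative control shRNA, and in the *CDYL*-sh group (2 libraries) they carried a shRNA against *CDYL*, which encodes a chromodomain protein of repressive chromatin complexes. The sh1 and sh2 in the labels of the *CDYL*-sh group may be replicates or different hairpins, which the labels leave unsaid, and separate cultures are not stated for either group. The p-values therefore measure the spread between these libraries, which may be technical.

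*CDYL* mRNA was at 50.4 and 53.0 CPM in the control libraries and at 11.4 and 9.70 CPM in *CDYL*-sh, where CPM are counts scaled to the same library size after TMM normalisation. Total expected counts ranged from 22341852 to 27688447 per library, and *CDYL*-sh replicate 2 was the smallest. The epithelial genes *EPCAM*, *KRT8*, *KRT18*, *KRT19*, *CDH1* and *CLDN4* were all present. They summed to 2340 and 2570 FPKM (fragments normalised by the authors for transcript length and library depth) in control and to 2350 and 2490 FPKM in *CDYL*-sh. Within this sum *KRT19* (295 and 362 to 515 and 558 FPKM) and *CLDN4* lay higher in both *CDYL*-sh libraries. *KRT8* (911 and 1013 to 779 and 823 FPKM) and *KRT18* lay lower, and *EPCAM* and *CDH1* overlapped. Markers of the endometrial lineage summed to 495 and 522 FPKM in control and to 352 and 375 FPKM in *CDYL*-sh, and the estrogen receptor gene *ESR1* did not exceed 0.2 FPKM. Of 7 fibroblast and stroma markers, 2 had a mean of at least 1 FPKM, and the list summed to 6.61 and 6.65 FPKM in control and to 4.14 and 4.64 FPKM in *CDYL*-sh, with *COL3A1* and *DCN* at 0 in all 4 libraries. Smooth muscle markers summed to 5.42 and 5.6 FPKM in control and to 2.72 and 3.29 FPKM in *CDYL*-sh, and 4 endothelial markers to 0.66 and 0.83 FPKM in control and to 1.75 and 1.87 FPKM in *CDYL*-sh. The leukocyte list summed to 5.77 and 8.11 FPKM in control and to 11.7 and 14.6 FPKM in *CDYL*-sh, mostly *CD68*, while *PTPRC* did not exceed 0.01 FPKM. The part that these shifts between the groups have in the results was not tested.

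Actin filaments grow when monomers join at a free end, and cells decide where this happens through nucleators. The Arp2/3 complex starts branches on existing filaments after WAVE or N-WASP activates it, and it drives the sheet-like front of migrating epithelial cells. Formins start and lengthen unbranched filaments, which they feed with actin bound to profilin. Thymosins hold monomers in reserve, capping proteins close filament ends, and cofilins sever old filaments until LIM kinases switch them off and slingshot phosphatases switch them on again.

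Of the 51 genes, 50 passed the filter on low counts, and the formin gene *DAAM2*, with at most 0.415 CPM, did not. Among the 50, 7 rose in *CDYL*-sh, 6 fell and 37 did not pass edgeR's quasi-likelihood test (adjusted p under 0.05). In bulk RNA, fewer cells with a transcript and less of it in each cell cannot be told apart. These 13 are 26.0% of the genes, beside 25.7% of all 16158 genes tested, so the share was near the background. The split was near it too, with 14.0% higher and 12.0% lower, beside 13.6% and 12.1% of all genes tested. The median log2 ratio of *CDYL*-sh to control was 0.03 over the 50 genes and 0.01 over all genes tested. Fold changes ran from -1.07 for *PFN2* to 0.76 for *DIAPH2*, and *PFN2* alone changed by more than 2-fold. For 45 of the 50 genes the 95% interval of the log2 ratio lay within a 2-fold change in either direction. The levels of the groups did not overlap for 34 of the 50 genes, 15 higher and 19 lower, beside 64.3% of all genes tested (32.5% higher and 31.8% lower).

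**Figure D1:**
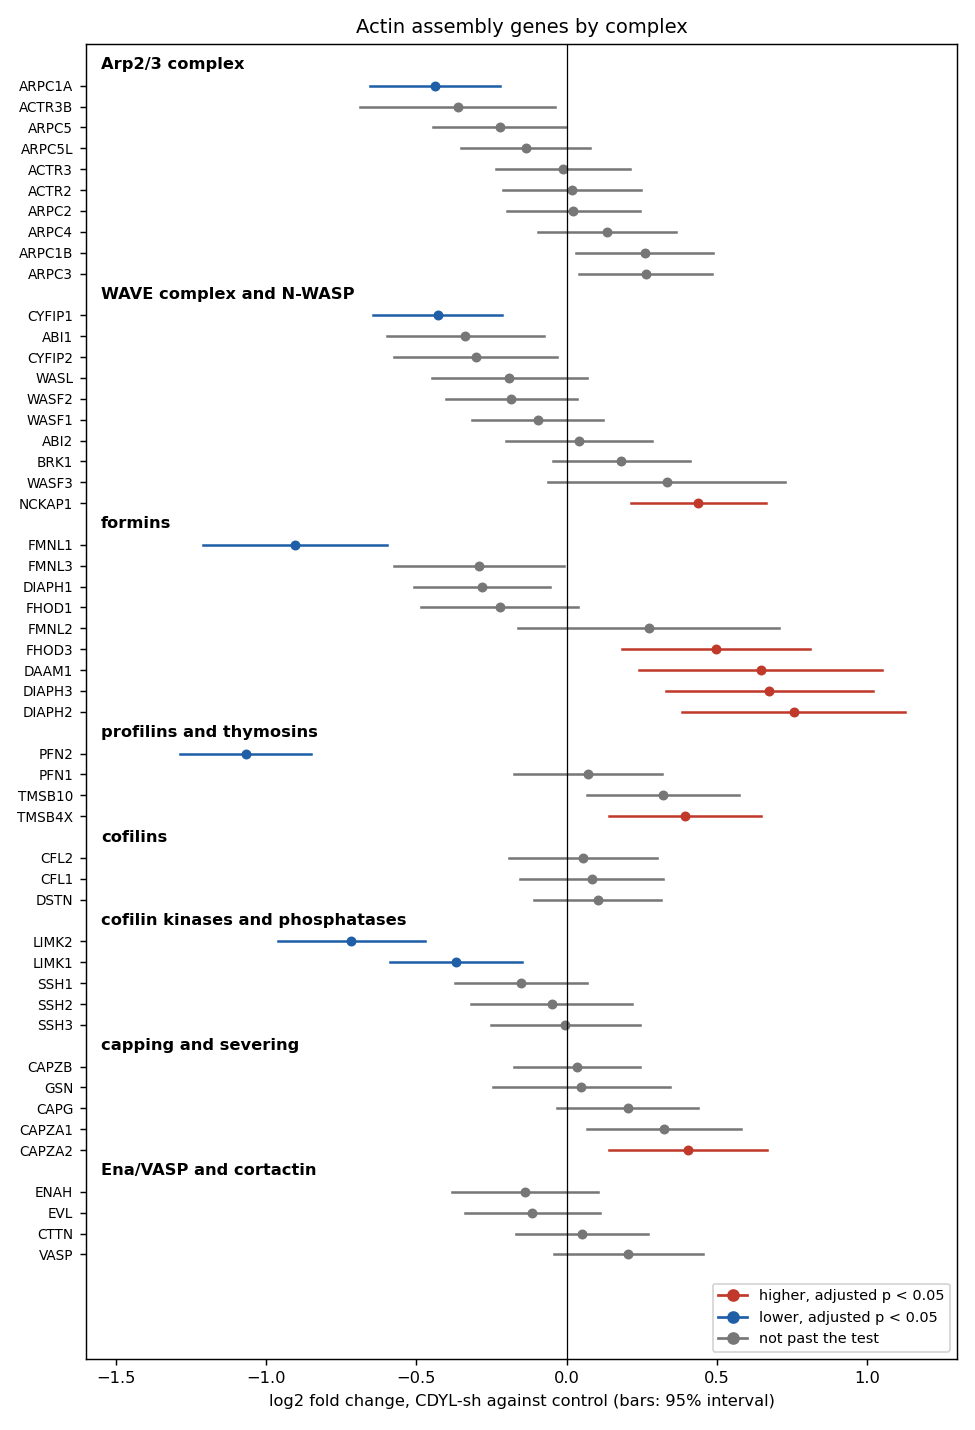
Log2 ratio of *CDYL*-sh to control for the 50 tested genes (points), with its 95% interval (bars), grouped by complex. The 6 lower genes are blue, from *PFN2* at -1.07 to *LIMK1* at -0.37, the 7 higher genes are red, up to *DIAPH2* at 0.76, and the other 37 are grey.

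Base composition was read beside the calls, with no test. The GC content of the longest annotated transcript had a median of 39.8% (39.2 to 53.8%) among the 7 higher genes and of 52.2% (41.6 to 61.8%) among the 6 lower genes, against 48.8% over the 15828 tested genes with a value, so the ranges overlapped. When GC content and gene length were offset, 8 genes were higher and 13 were lower in place of 7 and 6, beside 2370 and 2736 of all 16158 genes in place of 2201 and 1956, and *NCKAP1* and *CAPZA2* no longer passed. The length in these offsets was that of the longest annotated transcript, 20332 bases for *NCKAP1* and 5068 bases for *CAPZA2*. The counts and FPKM of these genes together imply shorter transcripts, 4628 to 4761 bases and 1673 to 2051 bases. The lengths also differed for genes that the offsets added as lower, such as *ACTR3* (6589 bases against 2218 to 2600). For *ENAH* they were 13168 bases against 3732 to 4406, while for *WASL* they were close, 4363 bases against 4128 to 4131. How far base composition bears on the calls was not tested beyond these offsets.

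Of the profilins, which bring monomers to growing ends, *PFN2* fell and *PFN1* did not pass the test. *PFN2* (ENSG00000070087, chromosome 3 from 149964904 to 150050788 on GRCh38) was at 172 and 178 CPM in control and at 86.6 and 80.5 CPM in *CDYL*-sh. Both *CDYL*-sh libraries lay below both controls, with control at 175 ± 3.97 CPM (SD, n = 2) against 83.5 ± 4.26 CPM (SD, n = 2) after knockdown. This is 2.1-fold lower, a log2 ratio of -1.07 with a standard error (SE) of 0.10, and the call held under each of the 12 other settings. The far more abundant *PFN1* was at 1708 and 1900 CPM in control and at 1816 and 1976 CPM in *CDYL*-sh, so the groups overlapped. Its log2 ratio was 0.07 with a 95% interval of -0.17 to 0.32. Per length, *PFN2* made up 3.68 and 3.4% of the summed FPKM of both profilins in control and 1.81 and 1.55% in *CDYL*-sh.

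Of the thymosins, which bind free monomers, *TMSB4X* was higher in *CDYL*-sh. It stood at 160 and 208 CPM in control and at 232 and 251 CPM in *CDYL*-sh, a log2 ratio of 0.39 (SE 0.12, edgeR adjusted p = 0.0224). The control libraries lay farther apart than the *CDYL*-sh libraries, and the call was lost when either control replicate 1 (0.20) or *CDYL*-sh replicate 2 (0.34) was left out. *TMSB10*, the most abundant of the 51 transcripts per length, was at 5088 and 5862 FPKM in control and at 6575 and 7090 FPKM in *CDYL*-sh. Its counts gave 962 and 1146 CPM in control and 1246 and 1388 CPM in *CDYL*-sh, which do not overlap. The log2 ratio of 0.32 (SE 0.12) missed the threshold with an adjusted p of 0.0565 from edgeR, and it passed in 6 of the 12 other settings. The summed FPKM of these 4 genes was 8620 and 9770 in control and 10500 and 11200 in *CDYL*-sh.

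The listed formins changed in both directions, and 5 of the 9 tested passed the test (55.6%), beside 25.7% of all genes tested. Of the 9, 4 were higher (44.4%, beside 13.6%) and 1 was lower (11.1%, beside 12.1%). Whether these shares differ from those of all genes was not tested. *FMNL1* (ENSG00000184922, chromosome 17 from 45221444 to 45247319), a formin best known from blood cells, fell from 20.5 and 22.8 CPM in control to 12.0 and 11.2 CPM in *CDYL*-sh. The groups were well apart, at 21.7 ± 1.63 CPM (SD, n = 2) and 11.6 ± 0.600 CPM (SD, n = 2). The log2 ratio was -0.90 (SE 0.15, edgeR adjusted p = 0.000235), or 1.87-fold lower, and it passed in all 12 other settings. Its counts were not whole numbers in any library, so some reads were divided between *FMNL1* and another gene.

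The 4 formins that rose did not exceed 23.6 CPM in any library. *DIAPH2* (ENSG00000147202, chromosome X from 96684712 to 97604997), a diaphanous formin, was at 7.18 and 6.33 CPM in control and at 11.1 and 11.8 CPM in *CDYL*-sh. Its log2 ratio was 0.76 (SE 0.18), 1.69-fold higher, and it passed without each library in turn. Its relative *DIAPH3* was at 12.8 and 10.3 CPM in control and at 16.5 and 20.4 CPM in *CDYL*-sh, a log2 ratio of 0.67 (SE 0.16). That call was lost without *CDYL*-sh replicate 2, at 0.52.

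*DAAM1*, a formin of the Wnt planar polarity pathway, had 8.01 and 5.65 CPM in control and 10.6 and 10.8 CPM in *CDYL*-sh. The control libraries differed more from each other than the *CDYL*-sh libraries did. Its log2 ratio of 0.65 (SE 0.19) did not pass with DESeq2 (0.64), nor without control replicate 2 (0.42), *CDYL*-sh replicate 1 (0.64) or *CDYL*-sh replicate 2 (0.64). *FHOD3*, a formin known from the sarcomeres of heart muscle, had 15.5 and 14.5 CPM in control and 23.6 and 18.6 CPM in *CDYL*-sh. Its log2 ratio of 0.50 (SE 0.15) fell short without *CDYL*-sh replicate 1, at 0.30.

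The most abundant of the 10 listed formins per length, *DIAPH1*, did not pass the test. It stood at 51.9 and 44.7 FPKM in control and at 46.8 and 42.8 FPKM in *CDYL*-sh, 52.3 to 56.5% of the summed FPKM of the 10 formins. By counts it was at 209 and 180 CPM in control and at 166 and 154 CPM in *CDYL*-sh, and its log2 ratio was -0.28 (edgeR adjusted p = 0.0617, 95% interval -0.51 to -0.06), which passed in 4 of the 12 other settings, DESeq2 among them. *INF2*, a formin from the wider pathway list, had 63.37 and 63.46 FPKM in control and 75.05 and 78.62 FPKM in *CDYL*-sh. These levels exceed those of *DIAPH1*, and *INF2* did not pass the test (log2 ratio 0.06). It is left out of these shares and sums. The summed FPKM of the 10 listed formins overlapped between the groups, with 91.8 and 85.4 in control and 87.7 and 81.7 in *CDYL*-sh. The share of *FMNL1* in it was 11.1 and 13.7% in control and 6.18 and 6.29% in *CDYL*-sh. The other 3 tested formins of the list, *FHOD1*, *FMNL2* and *FMNL3*, had log2 ratios of -0.22, 0.27 and -0.29 and did not pass. That of *FMNL2* rested on the control libraries, at 0.62 and past the test without control replicate 1 and at -0.007 without control replicate 2.

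**Figure D2:**
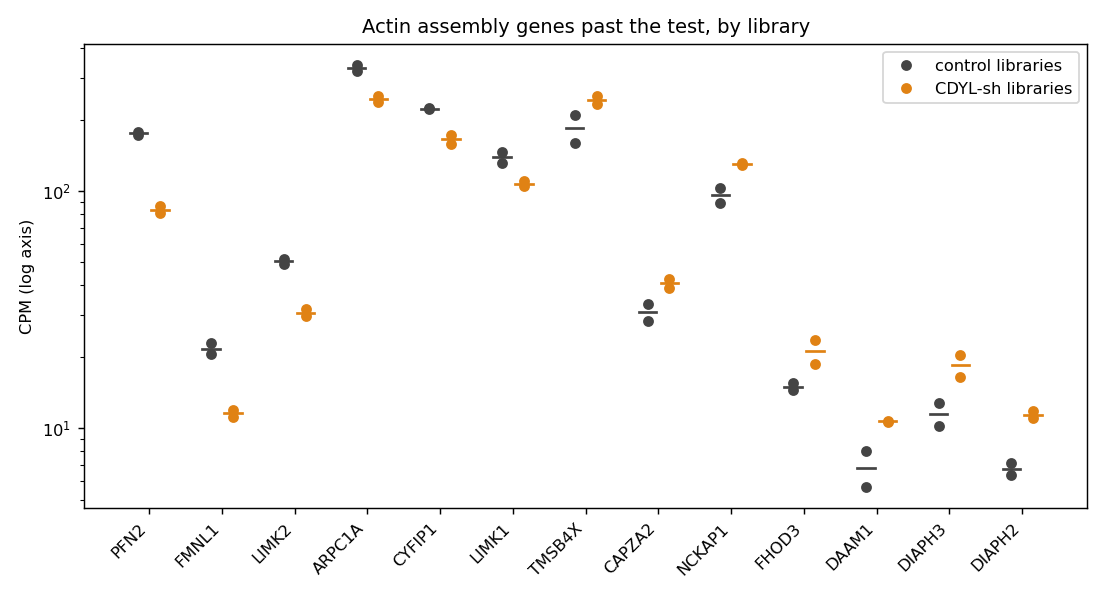
CPM (log axis) of the 13 genes past the test, with a point for each of the 2 control (grey) and 2 *CDYL*-sh (orange) libraries and a line at each mean. *PFN2* goes from 175 to 83.5 CPM on the left and *DIAPH2* from 6.76 to 11.4 CPM on the right. The groups lie apart for all 13 genes, which were picked by a test on these same libraries, and for 64.3% of all genes tested.

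The LIM kinase genes *LIMK1* and *LIMK2*, whose products inactivate cofilin, fell, while the cofilins and the phosphatases did not pass the test. The cofilin kinase genes *TESK1* and *TESK2*, from the wider pathway list, had log2 ratios of -0.11 and 0.44 and did not pass either. *LIMK2* (ENSG00000182541, chromosome 22 from 31212239 to 31280080) was at 49.3 and 51.9 CPM in control and at 31.7 and 29.8 CPM in *CDYL*-sh. Libraries of the same group lay close together, and the log2 ratio was -0.72 (SE 0.12, edgeR adjusted p = 0.00025), 1.64-fold lower, past the test in all 12 other settings. *LIMK1* was at 131 and 146 CPM in control and at 110 and 105 CPM in *CDYL*-sh, a log2 ratio of -0.37 (SE 0.11). That smaller change was lost when either control replicate 2 (-0.29) or *CDYL*-sh replicate 2 (-0.33) was left out. *LIMK2* supplied 33.0 and 28.4% of the summed FPKM of both LIM kinases in control and 24.6 and 23.2% in *CDYL*-sh. Its implied transcript length was 2188 and 2572 bases in control and 2560 and 2723 bases in *CDYL*-sh, beside 2862 to 2896 bases for *LIMK1*. The share therefore rests on the assigned length as well as on the counts.

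The slingshot phosphatase genes *SSH1*, *SSH2* and *SSH3* had log2 ratios of -0.15, -0.05 and -0.004. Among these 5 regulators *SSH2* had the highest FPKM, at 52.5 and 57.4 in control and 60.7 and 60.4 in *CDYL*-sh, for an implied transcript length of only 459 to 633 bases. Of the cofilins, *CFL1*, the main isoform of non-muscle cells, was at 1247 and 1316 FPKM in control and at 1321 and 1404 FPKM in *CDYL*-sh. By counts its groups overlapped, and its log2 ratio was 0.08 with a 95% interval of -0.16 to 0.32. *CFL2* and *DSTN*, the muscle cofilin and destrin, had log2 ratios of 0.05 and 0.10. None of the 3 cofilins passed the test with edgeR, DESeq2 or limma, nor did any reach an unadjusted p under 0.05 with these tools (0 of 3).

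The Arp2/3 complex held its summed level, and 1 of its 10 genes passed the test. The sum was 1670 and 1740 FPKM in control and 1710 and 1720 FPKM in *CDYL*-sh, so the groups overlapped. *ARPC1A*, which encodes an isoform of the p40 subunit that contacts activators, fell from 322 and 339 CPM to 250 and 238 CPM. Its log2 ratio was -0.44 (SE 0.10, edgeR adjusted p = 0.00463), and the call held without each library in turn. Its paralog *ARPC1B*, the other p40 isoform, was at 323 and 349 CPM in control and at 380 and 424 CPM in *CDYL*-sh. This change of 0.26 (95% interval 0.03 to 0.49) went the other way and did not pass, with an adjusted p of 0.086 from edgeR.

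*ARPC1A* and *ARPC1B* lie close together on chromosome 7 of GRCh38, from 99325898 to 99366262 and from 99374249 to 99394816. *ARPC1A* gave 36.1 and 34.9% of their summed FPKM in control and 28.9 and 26.6% in *CDYL*-sh. *ARPC1B* had the highest FPKM of the complex, 458 and 498 in control and 501 and 524 in *CDYL*-sh. Counts of both genes were not whole in any library, so some reads were divided among genes. The difference between the fold changes of paralogs was not tested, here or for the other shares. All shares of FPKM rest on the transcript lengths assigned in each library as well as on the counts.

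The other subunits ranged from -0.36 for *ACTR3B*, a minor isoform of the actin-related protein Arp3, to 0.26 for *ARPC3*. *ARPC3* and *ARPC1B* did not overlap between the groups as higher, and *ACTR3B*, *ARPC5* and *ARPC5L* did not as lower, without passing the test. With *ARPC1A* these are 6 of the 10 genes, beside 64.3% of all genes tested. With edgeR no gene of the complex was higher past the test, 2 were so at an unadjusted p under 0.05, and DESeq2 called 0. The core genes *ACTR2* and *ACTR3*, which form the template for the new filament, had log2 ratios of 0.02 (95% interval -0.21 to 0.25) and -0.01 (95% interval -0.23 to 0.21). When GC content and gene length were offset, *ACTR3* (-0.30), *ACTR3B* (-0.46) and *ARPC5* (-0.47) passed as lower and *ARPC1B* (0.34) as higher.

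**Figure D3:**
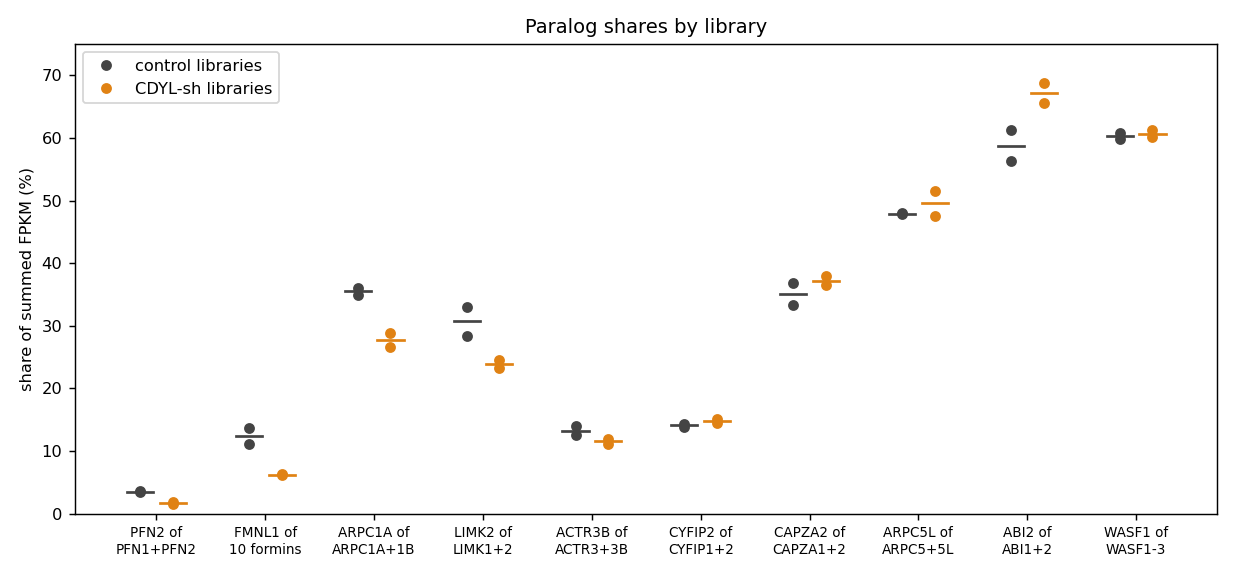
Share of 1 gene in the summed FPKM of its family (%), with a point for each of the 2 control (grey) and 2 *CDYL*-sh (orange) libraries and a line at each mean. The shares of *PFN2*, *FMNL1*, *ARPC1A* and *LIMK2* lie lower in both *CDYL*-sh libraries, as does that of *ACTR3B* by less, that of *ABI2* lies higher, and those of *ARPC5L*, *CAPZA2* and *WASF1* overlap.

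Of the WAVE complex, which links Rac to Arp2/3, *CYFIP1* fell and *NCKAP1* rose, although their products pair with each other in the complex. *CYFIP1* was at 221 and 225 CPM in control and at 172 and 158 CPM in *CDYL*-sh, a log2 ratio of -0.43 (SE 0.10). It did not pass without *CDYL*-sh replicate 2, at -0.37. *NCKAP1* was at 103 and 89.1 CPM in control and at 129 and 132 CPM in *CDYL*-sh, a log2 ratio of 0.44 (SE 0.11, edgeR adjusted p = 0.00593). This rise became 0.34 without control replicate 2 and 0.15 when GC content and gene length were offset, and passed in neither. The small subunit gene *BRK1* had the highest FPKM of the complex, 182 and 206 in control and 216 and 228 in *CDYL*-sh, with a log2 ratio by counts of 0.18 that did not pass.

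The other genes of this group did not pass either. *ABI1*, an adaptor subunit, was at 36.8 and 33.9 CPM in control and at 29.6 and 26.3 CPM in *CDYL*-sh. Its groups did not overlap, and it lay just outside the threshold with an adjusted p of 0.0529 from edgeR (log2 ratio -0.34). Its paralog *ABI2* gave 56.3 and 61.2% of their summed FPKM in control and 65.6 and 68.8% in *CDYL*-sh. The WAVE genes *WASF1*, *WASF2* and *WASF3* had log2 ratios of -0.10, -0.18 and 0.33. *WASL*, which encodes N-WASP, had one of -0.19, and *CYFIP2*, the paralog of *CYFIP1*, one of -0.30.

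Of the capping and severing genes, *CAPZA2*, a subunit of the barbed end capping protein, was higher in *CDYL*-sh. It was at 33.4 and 28.4 CPM in control and at 39.0 and 42.8 CPM in *CDYL*-sh, a log2 ratio of 0.40 (SE 0.13, edgeR adjusted p = 0.0241). The value became 0.29 without control replicate 2, 0.34 without *CDYL*-sh replicate 2 and 0.23 when GC content and gene length were offset, and none of these passed. Its paralog *CAPZA1* had a log2 ratio of 0.32 and an adjusted p of 0.0588 from edgeR, while *CAPZB*, its partner subunit in the heterodimer, had one of 0.03 (95% interval -0.18 to 0.24). *CAPG*, which caps without severing, was at 216 and 257 FPKM in control and at 246 and 283 FPKM in *CDYL*-sh, and *GSN*, gelsolin, had a log2 ratio of 0.05.

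None of the 4 genes of Ena/VASP proteins and cortactin passed the test, beside 25.7% of all genes tested. *CTTN*, cortactin, which holds Arp2/3 branches in place, had the highest FPKM of them, 87.8 and 91.3 in control and 98.2 and 85.1 in *CDYL*-sh, with overlapping groups. The filament elongators *ENAH*, *EVL* and *VASP* had log2 ratios of -0.14, -0.11 and 0.21. *VASP* passed in 3 of the 12 other settings, among them 0.38 without control replicate 2, and was at 0.04 without control replicate 1. With both edgeR and DESeq2, 0 of these 4 genes reached an unadjusted p under 0.05.

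Other genes of the actin pathway were read from a list of 91 genes by role, of which 78 were tested. Of these, 10 were higher and 12 were lower, 28.2% of those tested beside 25.7% of all genes. The genes of the substrate itself, *ACTB* and *ACTG1*, did not pass the test. Their log2 ratios were -0.14 (95% interval -0.39 to 0.12) and -0.14 (95% interval -0.39 to 0.10). *ACTB* was at 7889 and 8384 CPM in control and at 7469 and 7322 CPM in *CDYL*-sh. *ACTG1* was at 3091 and 3285 CPM in control and at 2912 and 2858 CPM in *CDYL*-sh. Both thus lay lower in *CDYL*-sh without overlap, as did 31.8% of all genes tested. Among lower genes was *SRF*, the transcription factor that monomeric actin controls through its coactivators. It went from 80.0 and 84.8 CPM in control to 47.6 and 42.2 CPM in *CDYL*-sh, a log2 ratio of -0.87 (SE 0.11), past the test in all 12 other settings. *MRTFA*, one of those coactivators, had 34.8 CPM in both control libraries and 25.1 and 23.2 CPM in *CDYL*-sh, a log2 ratio of -0.53 (SE 0.12) that was lost without *CDYL*-sh replicate 2 (-0.47).

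Also lower were *GMFB*, which undoes Arp2/3 branches, *ACTN4*, a filament crosslinker, and *PAK2*, a kinase downstream of Rac. *GMFB* was at 26.4 and 20.0 CPM in control and at 9.25 and 11.5 CPM in *CDYL*-sh (log2 ratio -1.17, SE 0.17). *ACTN4* and *PAK2* had log2 ratios of -0.55 (SE 0.11) and -0.48 (SE 0.11), and *PAK2* did not pass without control replicate 1 (-0.35). Among higher genes were *ROCK1* and *ROCK2*, kinases that phosphorylate LIM kinases. *ROCK1* was at 23.4 and 18.5 CPM in control and at 34.8 and 37.0 CPM in *CDYL*-sh (log2 ratio 0.78, SE 0.14), and *ROCK2* at 15.6 and 10.3 CPM and at 21.5 and 22.3 CPM (0.76, SE 0.17). The *ROCK2* ratio was 0.49 without control replicate 2 and still passed. *RHOF*, known from filopodia, and *CARMIL2*, which regulates capping protein, had log2 ratios of 0.49 (SE 0.11) and 0.92 (SE 0.19), and *RHOF* did not pass without control replicate 1 (0.40). *TMOD2*, a pointed end capping protein, was at 0.215 and 0 CPM in control and at 0.893 and 0.861 CPM in *CDYL*-sh, too few counts for a firm fold change, and did not pass without control replicate 2. Of these named pathway genes, *SRF* was the only one to pass with limma on log2 FPKM, where *TMOD2* was too low to be tested.

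**Figure D4:**
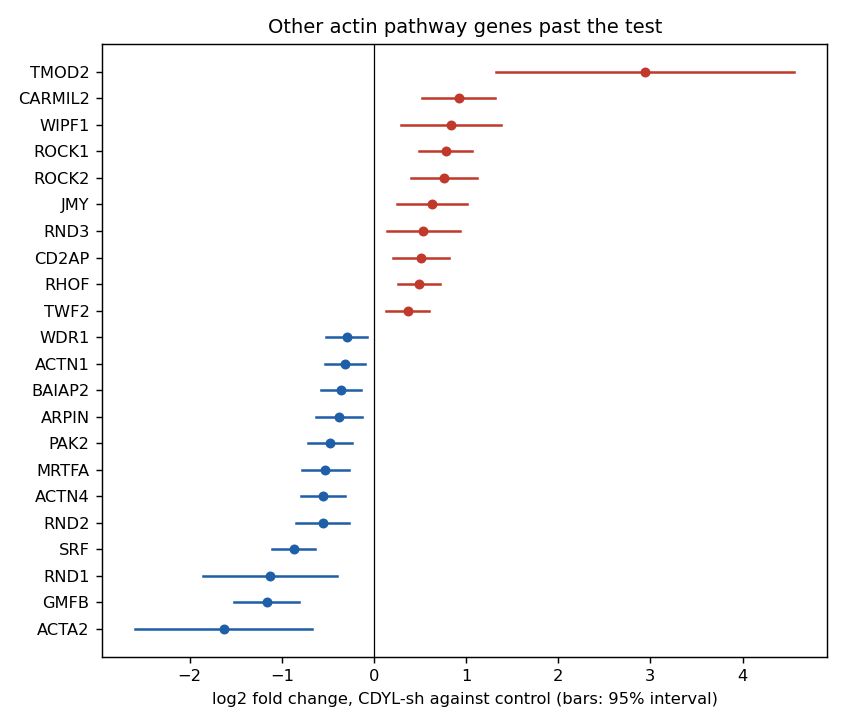
Log2 ratio, *CDYL*-sh against control (points), with its 95% interval (bars), of the 22 other actin pathway genes past the test. The 10 higher genes are red and the 12 lower genes are blue, with *SRF* at -0.87, *GMFB* at -1.17, *ROCK1* at 0.78 and *ROCK2* at 0.76, and *TMOD2*, at the top, rests on few counts.

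Since *SRF* fell, the promoters of the actin assembly genes were searched for the CArG box, the motif that SRF binds. Promoters were taken from RefSeq on GRCh38.p14, from 250 bases before to 50 bases after each annotated start. This gave 72 windows for 47 of the 51 genes, with none for *PFN2*, *ARPC1B*, *WASF2* or *CTTN*. A CArG box, searched on both strands, was found in none of the 47 genes (0). It was found in 1.5% of 11574 tested genes with a window and in 1.29% of all 35116 windows. At a share this low, a list of 47 genes can hold 0 by its size alone, so the count does not set these genes apart. Boxes outside the windows were not searched, and whether SRF acts on these genes was not tested. *SRF* itself has 2 annotated windows, of which one held 2 boxes and the other held 0. The letters GGGCGG, searched on both strands, were in at least 1 window of 44 of the 47 genes (93.6%), beside 76% of tested genes counted alike. They were in 45% of all 35116 windows, a share of single windows that cannot be set against these shares of genes. The windows of these genes ranged from 43.3 to 85% GC. For comparison with the windows of the actin genes, the CArG boxes of *SRF* are in capitals at chr6:43171019-43171318, plus strand.

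SRF: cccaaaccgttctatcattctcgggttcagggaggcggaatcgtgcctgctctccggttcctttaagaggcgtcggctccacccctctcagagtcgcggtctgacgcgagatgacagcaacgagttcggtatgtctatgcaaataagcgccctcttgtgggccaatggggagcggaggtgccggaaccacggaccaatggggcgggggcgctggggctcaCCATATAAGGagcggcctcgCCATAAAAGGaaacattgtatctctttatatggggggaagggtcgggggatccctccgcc

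The windows of 2 genes that fell and 1 that rose are shown with GGGCGG, on either strand, in capitals. *FMNL1* is at chr17:45221635-45221934, *LIMK2* at chr22:31212048-31212347 and *DIAPH2* at chrX:96684592-96684891, all on the plus strand. *LIMK2* has another annotated start, and the counts do not tell which start was used.

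FMNL1: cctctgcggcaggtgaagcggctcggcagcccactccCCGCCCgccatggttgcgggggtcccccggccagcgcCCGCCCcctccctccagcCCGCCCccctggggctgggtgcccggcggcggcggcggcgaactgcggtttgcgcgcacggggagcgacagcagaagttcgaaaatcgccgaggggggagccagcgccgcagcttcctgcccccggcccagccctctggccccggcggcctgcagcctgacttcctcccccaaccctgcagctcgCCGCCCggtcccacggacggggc

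LIMK2: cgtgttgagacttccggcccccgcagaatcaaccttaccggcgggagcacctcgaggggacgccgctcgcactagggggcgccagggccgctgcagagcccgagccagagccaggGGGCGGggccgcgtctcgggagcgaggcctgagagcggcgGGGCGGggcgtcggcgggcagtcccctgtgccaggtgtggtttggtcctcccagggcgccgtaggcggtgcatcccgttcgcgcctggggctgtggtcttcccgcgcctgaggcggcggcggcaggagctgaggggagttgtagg

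DIAPH2: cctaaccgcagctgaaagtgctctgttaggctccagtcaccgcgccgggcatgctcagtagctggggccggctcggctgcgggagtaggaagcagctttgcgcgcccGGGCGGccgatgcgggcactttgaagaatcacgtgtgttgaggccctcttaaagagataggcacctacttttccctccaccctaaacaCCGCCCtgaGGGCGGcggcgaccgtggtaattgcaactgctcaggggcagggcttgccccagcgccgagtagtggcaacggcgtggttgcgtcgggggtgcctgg

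The motif occurred 4 times in the window of *FMNL1*, 2 times in that of *LIMK2* and 3 times in that of *DIAPH2*. Since 44 of the 47 genes hold it, its presence in these windows cannot tell genes that rose from genes that fell. A match describes the letters only, not a site in use.

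The calls differed in how firmly they held. Of the 13 genes, *PFN2*, *FMNL1* and *LIMK2* passed in each of the 12 other settings, and 5 passed without each library in turn, these 3 with *ARPC1A* and *DIAPH2*. Each of the other 8 was lost without at least 1 library. With limma on log2 FPKM only these first 3 passed. None of the 13 changed its direction in any setting. Of the 37 genes that did not pass, 17 did so in at least 1 other setting, and *ACTR3B*, *ABI1*, *DIAPH1*, *FMNL2*, *TMSB10*, *CAPZA1* and *VASP* did so when 1 control library was left out.

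**Figure D5:**
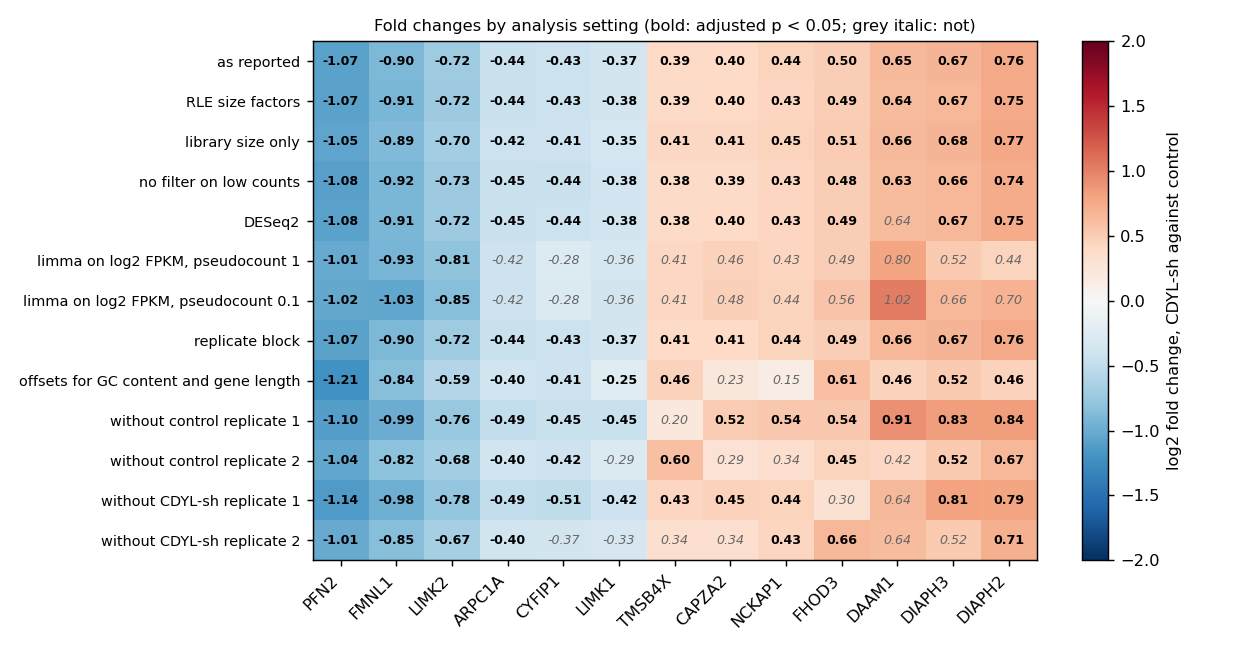
Log2 ratio, *CDYL*-sh against control (colour and printed value), of the 13 genes past the test (columns) under the reported analysis and 12 other settings (rows), in bold where the adjusted p was under 0.05 and in grey italics where it was not. *PFN2*, *FMNL1* and *LIMK2* are bold in every row, and each column keeps its sign.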

How the data were processed

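RNA was sequenced from 2 control and 2 *CDYL*-sh Ishikawa libraries, as paired-end reads. The authors used TopHat with the GRCh38.p10 genome, and RSEM and edgeR are further tools in the notes of the submitters. The deposited table holds expected counts, which are estimated and often not whole, and FPKM, which the authors normalised for length and depth. The annotation release is not given in the sources used here. Symbols were found for 98.1% of identifiers, and positions, lengths and GC content came from GENCODE on GRCh38.

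Expected counts were rounded, filtered with filterByExpr, normalised by TMM and tested with edgeR 4.0.16 (quasi-likelihood, *CDYL*-sh against control, Benjamini-Hochberg over 16158 genes, threshold 0.05). Intervals use the standard error of the fit. FPKM were summed or divided to compare genes per length, with no test, since 2 libraries against 2 cannot give an exact permutation p under 0.333. Alternatives were RLE or library size only, no filter, DESeq2 1.42.0, limma 3.58.1 with a mean trend on log2 FPKM (pseudocount 1 or 0.1, mean FPKM of at least 0.5), a replicate block, offsets for GC content and length (mgcv 1.9.3), and each library left out. The trend was set after the values were seen without it.

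All genes of the list could be named, with values per library for those past the test and the most abundant of each group. Of the other pathway genes, the 5 with the smallest adjusted p in each direction were named. *ACTB*, *ACTG1*, *TESK1*, *TESK2*, *INF2* and genes near the threshold were named after their values were seen. The members and lists were chosen with earlier results of these data known.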

Additional observations from a re-analysis of the deposited data

How the results depend on the processing

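Over all genes, the counts higher and lower were 2201 and 1956, and limma, run on log2 FPKM, gave 224 and 237 at pseudocount 1 and 255 and 252 at 0.1. Leaving out 1 library gave 1159 to 2078 higher and 923 to 1928 lower, in each case fewest without *CDYL*-sh replicate 2, the smallest library. Of the 50 actin assembly genes, 7 were higher and 6 lower. With either pseudocount limma called 0 higher and 3 lower (7 and 5 at an unadjusted p under 0.05). DESeq2 called 7 and 7, beside 1641 and 1683 of the 15351 genes it tested. The counts at an unadjusted p, in all sections, have no share over all genes beside them and cannot be read against a background. When GC content and gene length were offset, 8 were higher and 13 lower, and the 7 added as lower were *ABI1*, *ACTR3*, *ACTR3B*, *ARPC5*, *ENAH*, *FMNL3* and *WASL*, while *ARPC1B*, *TMSB10* and *VASP* were added as higher and *CAPZA2* and *NCKAP1* were lost. Over all genes these offsets gave 2370 higher and 2736 lower. Leaving out 1 library gave 3 to 8 higher and 4 to 8 lower, with 3 and 4 without *CDYL*-sh replicate 2. These fits take the lone library of a group to have the spread of the other group. Of the other pathway genes, 10 were higher and 12 lower, limma called 0 and 1 (10 and 11 at an unadjusted p under 0.05), and leaving out 1 library gave 6 to 9 higher and 6 to 10 lower, with 7 lower without control replicate 1 or *CDYL*-sh replicate 1 and 6 in each direction without *CDYL*-sh replicate 2. The cause of these differences was not tested. *CDYL* passed in every setting. With a replicate block, 14 actin assembly genes were higher and 10 lower, beside 2812 and 2581 of all 16158 genes. The labels give both groups the numbers 1 and 2 but do not say that a number marks a shared culture, and deviations of same-numbered libraries had a correlation of 0.0233 across genes. No tested gene named above changed its direction past the test under any setting. *INF2*, *TESK1*, *TESK2* and the cell type markers were not read for this.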

Other observations

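The deposited counts and FPKM of a gene together imply the transcript length that the authors' estimate used in each library, which depends on the isoforms assigned. Among the tested actin assembly genes it moved most between the groups for *CFL2* and *DAAM1*. The implied length of *CFL2* was 1633 and 1181 bases in control and 1453 and 2322 bases in *CDYL*-sh. Its FPKM in *CDYL*-sh, 28.9 and 16.8, were therefore far apart although its CPM were 41.1 and 39.5. For *DAAM1* it was 3370 and 2957 bases in control and 2004 and 2967 bases in *CDYL*-sh, and its FPKM went from 2.39 and 1.88 to 5.4 and 3.59 while its CPM went from 8.01 and 5.65 to 10.6 and 10.8. *SSH2*, which had the highest FPKM among the cofilin regulators, had an implied length of 459 to 633 bases, and by counts it was at 28.1 to 33.8 CPM, below *LIMK1*. Whether isoform use differed was not tested, since the table gives no isoforms.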
